A study of Mus musculus with 16 samples.

Results

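A set of 35 genes for lysosomal enzymes and lysosomal membrane proteins was described across the crypt and villus zones of the suckling mouse intestine. The members were a list of gene symbols, chosen with earlier results of these data known. All 35 were found among the 24421 genes listed in both deposited matrices. They comprise 11 proteases (the cathepsins *Ctsa*, *Ctsb*, *Ctsc*, *Ctsd*, *Ctsf*, *Ctsh*, *Ctsl*, *Ctss* and *Ctsz*, with *Lgmn* and *Tpp1*), 10 glycosidases (*Naglu*, *Hexa*, *Gaa*, *Gla*, *Glb1*, *Gusb*, *Man2b1*, *Manba*, *Fuca1* and *Neu1*), 6 genes for lipid-degrading enzymes, their activators and related soluble proteins (*Gm2a*, *Asah1*, *Psap*, *Lipa*, *Ppt1* and *Grn*), the cholesterol exporters *Npc1* and *Npc2*, and 6 membrane proteins (*Lamp1*, *Lamp2*, *Cd63*, *Scarb2*, *Laptm4a* and *Slc46a3*). Single cells came from small intestine enriched for crypts, taken at postnatal day 16 from untreated mice of an outbred background. WT mice were compared with ROBO mice, which carry 1 copy of a Crainbow transgene at the ROSA locus and 1 copy of Villin-Cre. After recombination by Cre, which the Villin promoter drives in the intestinal epithelium, a cell expresses from the CAG promoter either RSPO3 or 1 of 2 PTPRK:RSPO3 fusions, each paired with a fluorescent protein, so the ROBO epithelium is a mosaic and the count tables do not tell the recombined cells apart. The labels list 8 samples of each genotype, but the names of the cells give the genotype only, and each genotype was therefore handled as 1 pooled sample with no replicate error.

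Lysosomes are acidic organelles in which proteases, glycosidases and lipases break down material that reaches them by endocytosis or autophagy. Their enzymes are tagged with mannose 6-phosphate in the Golgi and sorted to the organelle, a proton pump (the V-ATPase) keeps the lumen acid, and heavily glycosylated membrane proteins such as LAMP1 line the limiting membrane. Before weaning, enterocytes of the rodent small intestine, above all in its distal part, take up milk proteins by endocytosis and digest them in large lysosomes, a function that is lost when the adult epithelium replaces them. New enterocytes are made in the crypt and move towards the tip of the villus, so the order of zones from stem cell to top enterocyte is also an order of cell age.

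The matrices held 1348 WT cells with 2682127 UMIs (unique molecular identifiers, each standing for 1 captured transcript) and 1249 ROBO cells with 2428435 UMIs, with a median of 1492 and 1610 UMIs per cell. Cells were clustered without the members and without the other lysosomal and endocytosis genes on the lists used here, so that the members could not set the classes, and clusters were named from marker genes. There were 677 stem cell-like cells in 2 clusters, 553 transiently amplifying-like cells in 2 clusters, 237 bottom, 371 middle and 282 top enterocyte-like cells, 128 secretory-like, 30 enteroendocrine-like and 45 immune-like cells, and 2 clusters stayed unnamed. Top enterocyte-like cells raised 10 of the 12 top enterocyte markers and were led by *Gpx3*, *Mfi2* and *Ada*, while *Lgr5* was among the 10 leading genes of 1 stem cell-like cluster. The other stem cell-like cluster, of 386 cells led by *Erdr1*, was shallow, with a median of 856 UMIs, and raised 5 of 14 stem cell markers. The members *Ctsl* and *Slc46a3* were also among the 10 leading genes of the top enterocyte-like cluster, although neither had entered the clustering. Levels are UMIs of a gene per 10000 UMIs of all genes, pooled over all cells that share a class and a genotype. Values in parentheses after a level, a ratio or a share are 95% intervals. They cover the error of counting alone, since the spread over mice or libraries cannot be measured here. Median UMIs per cell were close at the ends compared, with 1120 in stem cell-like and 1143 in top enterocyte-like cells, and were higher in transiently amplifying-like, middle and bottom enterocyte-like cells, at 1828, 1857 and 2023.

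Together the 35 members took a larger share of the transcripts at the villus top than in the crypt. Through the 5 classes, from the stem cell-like over the transiently amplifying-like to the bottom, middle and top enterocyte-like, their summed level per 10000 in WT was 42.4 (40.6 to 44.2), 36.8 (35.4 to 38.2), 43.5 (41.2 to 45.9), 67.5 (65.0 to 70.0) and 127 (121 to 132). In ROBO the same sums were 44.6 (42.6 to 46.6), 38.6 (37.0 to 40.2), 42.6 (40.1 to 45.3), 66.8 (64.4 to 69.3) and 138 (133 to 143). The summed level was lower in transiently amplifying-like than in stem cell-like cells in both genotypes, without overlap of the intervals, and at the villus base was again near the stem cell-like level. It was higher in the middle zone and highest at the top, where it was 2.99-fold the stem cell-like level in WT and 3.09-fold in ROBO. *Ctsb* was the largest single contributor in all the crypt and enterocyte classes except the top, where *Ctsl* was, with 10.8% of the member UMIs in WT and 13.3% in ROBO.

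**Figure D1:**
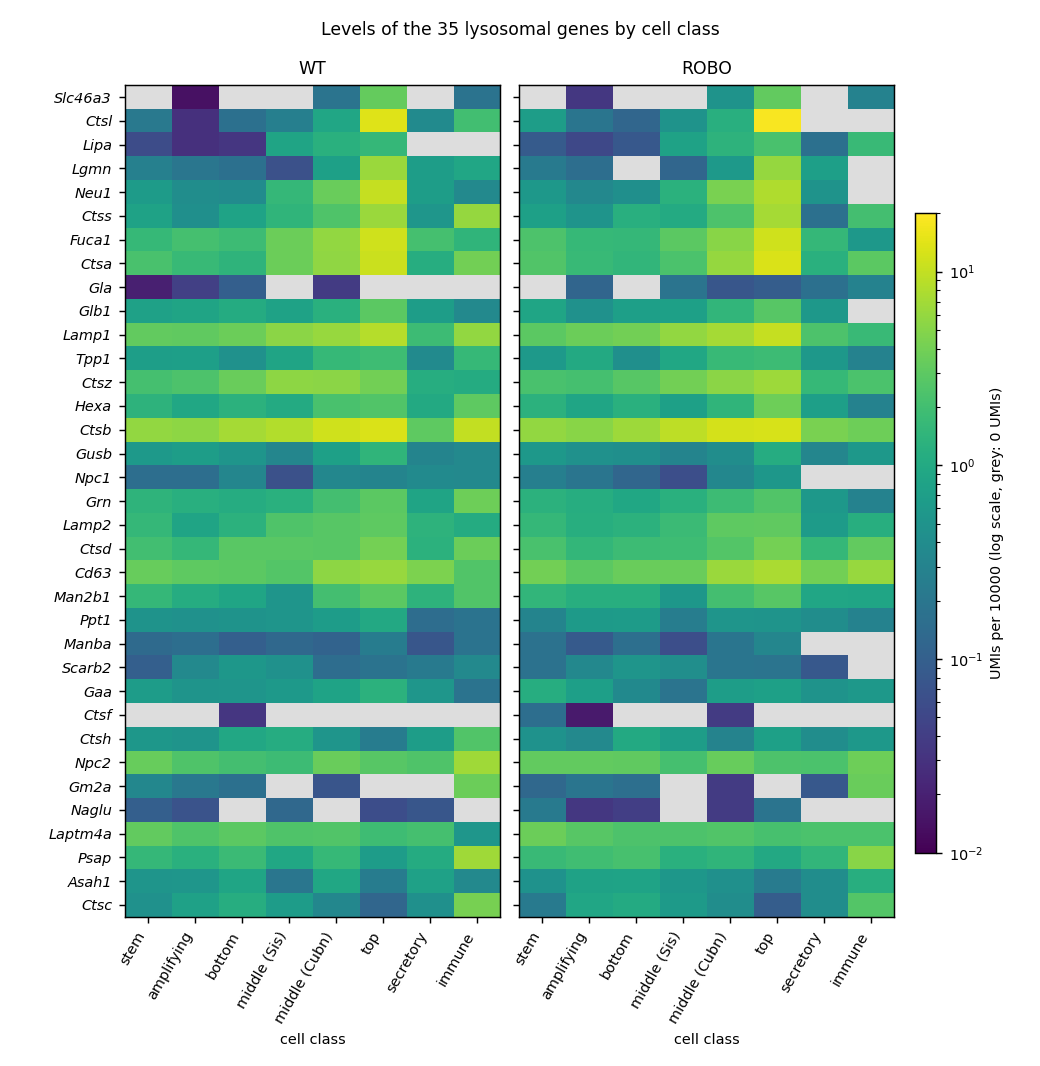
Levels of the 35 members (rows, ordered by their mean top over stem ratio) in 8 cell classes (columns) as UMIs per 10000 on a logarithmic colour scale, for WT (left) and ROBO (right); grey cells held no UMI of the gene. The brightest column in the upper rows is the top enterocyte-like class in both genotypes, whereas Gm2a, Psap and Ctsc in the lower rows are brightest in the immune-like class.

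For single members, a gene was said to rise (or fall) when its level in top enterocyte-like cells was past 2-fold that in stem cell-like cells in both genotypes, and to be even when it stayed within 1.5-fold in both. These are calls of size, with no test, and need at least 30 UMIs over the 2 classes in each genotype. Of the 35 members, 24 reached that number and 11 did not. Of the 24, 11 rose (11.3% of all 4149 genes with enough UMIs did so), none fell (31.0% of all genes) and 1 was even (16.9% of all genes). Another 8 were higher at the top in both genotypes and 2 lower in both without meeting either rule, and 2 went opposite ways in WT and ROBO. The median log2 ratio of the 24 was 1.09 in WT and 1.30 in ROBO, against -0.68 and -0.59 over all genes tested. The negative medians of all genes go in part with 14 very abundant genes that took 23.7% of top enterocyte-like UMIs in WT and 21.5% in ROBO but 0.439% and 0.433% of stem cell-like UMIs. Scaling without those 14 genes raised all top over stem ratios by 0.38 in WT and 0.34 in ROBO on the log2 scale, and 19 members then rose. The median over genes was still below 0 with that scaling, at -0.31 in WT and -0.25 in ROBO. Relative to the median gene, which does not depend on that choice, the median member was 1.77 higher in WT and 1.89 higher in ROBO.

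**Figure D2:**
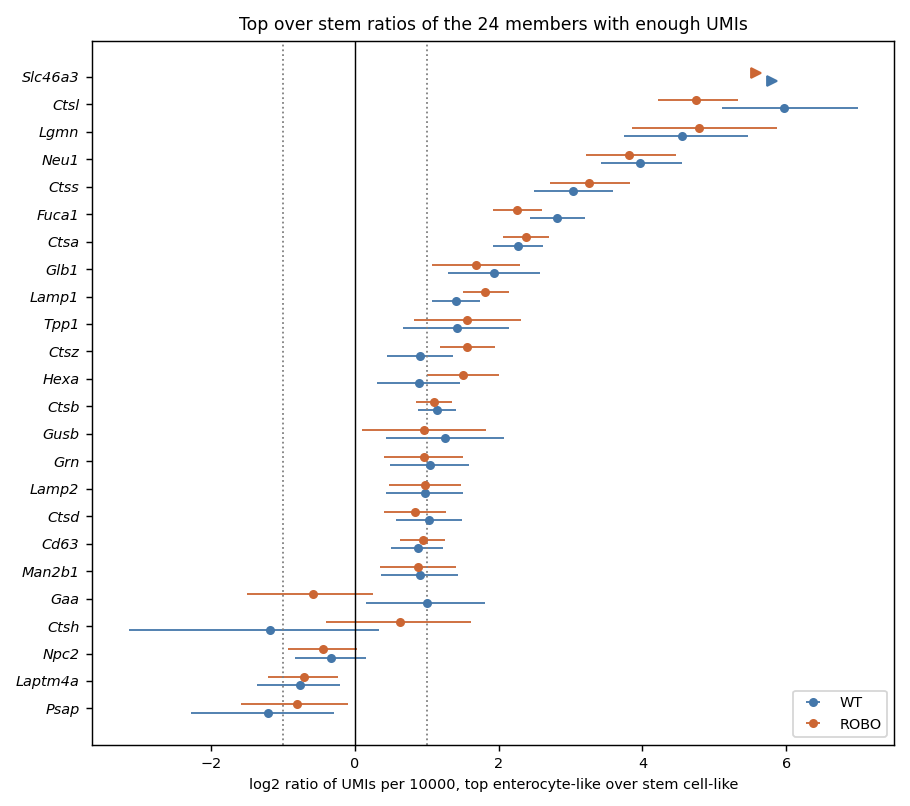
Log2 ratios of the level in top enterocyte-like over stem cell-like cells for the 24 members with at least 30 UMIs over both classes in each genotype, with 95% counting intervals; dotted lines mark 2-fold in either direction and the triangles for Slc46a3 are lower bounds, since stem cell-like cells held none of its UMIs. The 11 members that rose run from Ctsb at the low end to Ctsl and Slc46a3 at the high end, and Npc2, Laptm4a and Psap lie to the left of 0 in both genotypes.

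Of the 11 proteases 6 rose, *Ctsl* and *Lgmn* by most. *Ctsl* encodes cathepsin L, a cysteine endopeptidase. Its level in WT was 0.217, 0.0283, 0.165, 0.668 and 13.6 per 10000 in stem cell-like, transiently amplifying-like, bottom, middle and top enterocyte-like cells, and 0.684, 0.190, 0.122, 0.941 and 18.3 in ROBO. It was near absent up to the middle zone and stepped up at the top, with a log2 top over stem ratio of 5.98 (5.11 to 7.00) in WT and 4.75 (4.22 to 5.32) in ROBO, that is 62.9-fold and 26.8-fold. Part of its low crypt level came from 9 stem cell-like cells with UMIs of at least 2 fibroblast markers, 5 in WT and 4 in ROBO, which held 6 of the 11 and 23 of the 31 *Ctsl* UMIs of the class, and without them the ratio was 7.09 in WT and 6.67 in ROBO. *Lgmn*, which encodes legumain, an endopeptidase that cuts after asparagine and processes cathepsins, followed the same course, with 0.276, 0.198, 0.165, 0.501 and 6.46 per 10000 over the same 5 classes in WT and 0.221, 0.155, 0, 0.423 and 6.07 in ROBO. The log2 ratios of *Lgmn* were 4.55 (3.74 to 5.47) and 4.78 (3.86 to 5.88). The cysteine protease gene *Ctss* (cathepsin S) rose by 3.03 and 3.25 on the log2 scale, from 0.788 to 6.46 per 10000 in WT and from 0.750 to 7.14 in ROBO.

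*Ctsa* encodes cathepsin A, a serine carboxypeptidase that also protects β-galactosidase and the sialidase NEU1 in a common complex. It was lowest in bottom enterocyte-like cells in both genotypes and rose through the middle zone, with 2.25, 1.67, 1.42, 4.92 and 10.8 per 10000 in WT and 2.51, 1.66, 1.504, 4.61 and 13.0 in ROBO, and its log2 top over stem ratio was 2.27 (1.92 to 2.62) and 2.37 (2.05 to 2.70). The tripeptidyl peptidase gene *Tpp1* rose from 0.710 to 1.89 per 10000 in WT and from 0.617 to 1.82 in ROBO on 31 and 39 UMIs in top enterocyte-like cells. *Ctsb* (cathepsin B), the most abundant protease of the crypt, rose just past 2-fold, with 5.85 in stem cell-like and 12.9 in top enterocyte-like cells in WT and 5.84 and 12.5 in ROBO. The intervals of its log2 ratio, 1.14 (0.88 to 1.40) and 1.10 (0.85 to 1.35), include the 2-fold line. Most of its climb was already reached in the middle zone, at 10.4 and 11.1 per 10000.

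Other cathepsins changed less or had few UMIs. The aspartic protease gene *Ctsd* (cathepsin D) had log2 top over stem ratios of 1.03 in WT and 0.84 in ROBO, on either side of 2-fold. *Ctsz*, a carboxypeptidase gene, had its highest WT level in the middle zone, at 5.39 per 10000 against 3.96 at the top, whereas in ROBO the top was highest, at 6.58 against 4.77. *Ctsc*, which encodes dipeptidyl peptidase 1, ran the other way: it was highest in bottom enterocyte-like cells (1.13 in WT and 1.06 in ROBO) and lowest at the top, with 2 UMIs in each genotype there, too few for a call. The aminopeptidase gene *Ctsh* was also highest in bottom enterocyte-like cells among these 5 classes, at 0.960 and 1.02. *Ctsf* had 5 UMIs in all WT cells and 10 in all ROBO cells, so no pattern could be read.

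Of the 10 glycosidases *Neu1*, *Fuca1* and *Glb1* rose. *Neu1* encodes the lysosomal sialidase, which removes terminal sialic acid from glycoproteins and glycolipids. Its level was 0.650, 0.411, 0.397, 2.79 and 10.2 per 10000 over the 5 classes in WT and 0.573, 0.345, 0.447, 3.20 and 8.08 in ROBO, low up to the villus base, then higher in the middle zone and again at the top. The log2 top over stem ratios of *Neu1* were 3.97 (3.42 to 4.55) and 3.82 (3.22 to 4.47). *Fuca1*, the gene of the lysosomal α-fucosidase, had 1.64, 2.11, 1.82, 4.99 and 11.5 in WT and 2.38, 1.61, 1.59, 4.28 and 11.4 in ROBO, a rise of 2.81 and 2.26 on the log2 scale. *Glb1*, which encodes the acid β-galactosidase, stayed between 0.466 and 1.199 per 10000 in both genotypes from stem cell-like to middle enterocyte-like cells and reached 2.92 and 2.75 at the top.

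*Hexa* (the α subunit of β-hexosaminidase), *Gusb* (β-glucuronidase) and *Man2b1* (α-mannosidase) were higher at the top in both genotypes but missed 2-fold in at least 1 of them. Their log2 ratios were 0.89 in WT and 1.497 in ROBO for *Hexa*, 1.26 and 0.97 for *Gusb*, and 0.90 and 0.88 for *Man2b1*. *Gaa*, which encodes the acid α-glucosidase that degrades glycogen, had 22 UMIs at the top in WT and 16 in ROBO, and its level went up from stem to top in WT, from 0.670 to 1.34, and down in ROBO, from 1.12 to 0.747. The scarce members of the group were *Naglu* (α-N-acetylglucosaminidase), *Gla* (α-galactosidase A) and *Manba* (β-mannosidase), none above 0.327 per 10000 in any of the 5 classes.

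The genes for lipid breakdown and for its activators did not move together. *Lipa* encodes the lysosomal acid lipase, which splits cholesteryl esters and triglycerides. Its level was 0.0591, 0.0283, 0.0331, 1.10 and 1.58 per 10000 in WT and 0.0882, 0.0518, 0.0813, 1.15 and 2.29 in ROBO, close to 0 up to the villus base and present from the middle zone on. Its log2 top over stem ratios were 4.74 (3.04 to 7.11) and 4.70 (3.25 to 6.63), but the WT classes held 26 and 3 UMIs, 1 short of the 30 needed for a call. *Psap*, whose product is cut into the saposins that present sphingolipids to their hydrolases, was lower at the top, with 1.56 in stem cell-like and 0.670 in top enterocyte-like cells in WT and 1.72 and 0.980 in ROBO. The log2 ratio of *Psap* was -1.22 (-2.28 to -0.30) and -0.81 (-1.58 to -0.10), past 2-fold in WT only. The acid ceramidase gene *Asah1* had ratios of -1.13 and -1.06 on 4 and 5 top enterocyte-like UMIs. *Gm2a*, the activator of ganglioside GM2 hydrolysis, had no UMI in top enterocyte-like cells of either genotype. The upper limits of its level there were 0.225 per 10000 in WT and 0.172 in ROBO, against levels of 0.335 and 0.132 in stem cell-like cells. *Grn* (progranulin) was higher at the top, by 1.04 in WT and 0.96 in ROBO, near 2-fold, and *Ppt1*, a thioesterase gene, had 0.98 and 0.73 on 16 and 11 top enterocyte-like UMIs.

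*Npc2* was the only member that met the rule for even. It encodes the soluble protein that hands cholesterol to the membrane transporter NPC1, and it had 3.45, 2.48, 2.05, 2.91 and 2.74 per 10000 over the 5 classes in WT and 3.24, 3.25, 3.09, 2.92 and 2.38 in ROBO. The rule for even compares the end classes only. WT stem cell-like cells (interval 2.96 to 4.00) lay above the transiently amplifying-like (2.13 to 2.88) and bottom enterocyte-like cells (1.57 to 2.63), without overlap. The intervals of the 5 ROBO classes overlapped. The log2 top over stem ratio was -0.33 (-0.84 to 0.15) and -0.45 (-0.93 to 0.02). Scaling without the 14 abundant genes moved it to 0.05 and -0.10. *Npc1* itself had 5 UMIs in WT and 12 in ROBO top enterocyte-like cells and was not called.

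Of the 6 membrane protein genes *Slc46a3* and *Lamp1* rose. *Slc46a3* encodes a lysosomal transporter of the solute carrier family. Stem cell-like and bottom enterocyte-like cells held none of its UMIs in either genotype, transiently amplifying-like cells held 1 in WT and 2 in ROBO, middle enterocyte-like cells 5 and 13, and top enterocyte-like cells 54 and 68. Against the limit that 3 counts set in stem cell-like cells, *Slc46a3* was 55.6-fold higher at the top in WT and 48.0-fold higher in ROBO. The exact lower limit of its log2 top over stem ratio was 5.45 in WT and 5.25 in ROBO. *Lamp1*, the main structural glycoprotein of the lysosomal membrane, rose from 3.23 to 8.59 per 10000 in WT and from 2.93 to 10.3 in ROBO, with log2 ratios of 1.41 (1.07 to 1.74) and 1.81 (1.498 to 2.14). Its relative *Lamp2* and the tetraspanin gene *Cd63* had ratios of 0.97 and 0.98, and of 0.87 and 0.94, all just under 2-fold. *Laptm4a*, a small membrane protein gene, was lower at the top in both genotypes, by -0.77 (-1.37 to -0.21) in WT and -0.71 (-1.21 to -0.24) in ROBO, from 3.21 to 1.89 and from 3.59 to 2.19 per 10000. *Psap* and *Laptm4a* stayed below 0 with the other scaling, at -0.83 and -0.47 and at -0.38 and -0.37. *Scarb2*, which carries glucocerebrosidase to the lysosome, had 3 and 4 top enterocyte-like UMIs and its highest level in bottom enterocyte-like cells, at 0.563 and 0.528.

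The members were also ordered along a score that used no cluster border between the enterocyte zones. Each enterocyte-like cell was given the share of top markers among its top and bottom marker UMIs, and the 890 cells with such a UMI were cut into 5 equal groups. Markers of these zones also named the classes, so the score is not independent of them. From the third to the fifth group the median score was 0.89, 0.98 and 1 in WT and 0.91, 0.99 and 1 in ROBO, so these groups differ little in score. The summed member level was 43.6, 51.4, 73.4, 104 and 124 per 10000 from the first to the fifth group in WT and 42.05, 49.9, 75.4, 112 and 134 in ROBO. The members differed in where along the score they climbed. *Ctsa* was at 1.54, 2.56, 5.93, 9.04 and 10.2 in WT and 1.43, 2.12, 6.34, 11.3 and 10.5 in ROBO, so that most of its final level was reached by the middle group. *Ctsl* was at 0.214, 0.0826, 0.806, 7.12 and 13.3 in WT and 0.148, 0.386, 1.25, 8.21 and 20.6 in ROBO, and *Lgmn* at 0.171, 0.248, 0.288, 3.12 and 7.04 and 0, 0.193, 0.736, 3.40 and 5.72, so that both were still low in the middle group and climbed in the last 2. *Neu1* lay between these courses, at 0.300, 0.785, 3.91, 7.68 and 9.56 and 0.246, 1.49, 4.02, 6.21 and 8.39. *Npc2* kept to 2.14 to 3.59 per 10000 over all groups of both genotypes, and *Psap* went from 1.71 to 0.722 in WT and from 2.31 to 1.10 in ROBO.

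**Figure D3:**
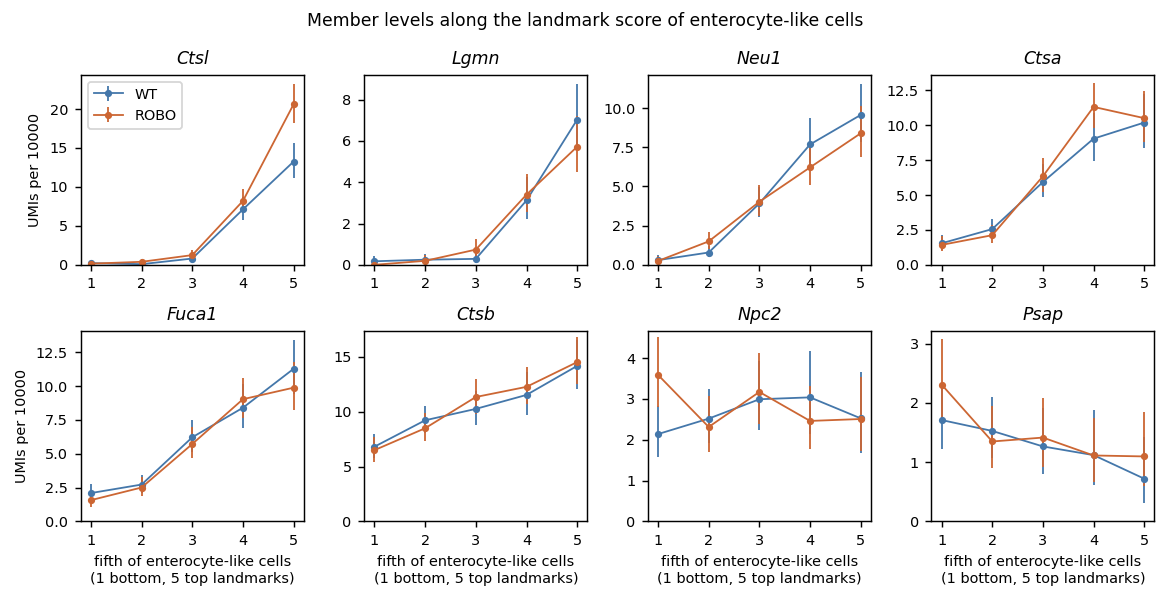
Levels (UMIs per 10000, each panel from 0) of 8 members in 5 equal groups of enterocyte-like cells ordered by the share of top markers among their top and bottom marker UMIs, with 95% Poisson intervals, in WT and ROBO. Ctsl and Lgmn stay low up to the third group, Neu1, Ctsa and Fuca1 climb from the second, Ctsb climbs slowly, Npc2 is level and Psap declines.

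The middle zone was made of 2 clusters, one of 133 cells led by *Sis* (sucrase-isomaltase, an enzyme of the adult type) and one of 238 cells led by *Cubn* (cubilin, an endocytic receptor) and with *Lct* (lactase, the milk sugar enzyme) among its leading genes. In WT the summed member level per 10000 was 52.3 (48.8 to 56.1) in the *Sis* cluster against 76.1 (72.9 to 79.5) in the *Cubn* cluster, and in ROBO it was 48.7 (45.4 to 52.3) against 77.9 (74.6 to 81.4), without overlap of the intervals. Of the 19 members with at least 30 UMIs over both clusters in each genotype, 2 were past 2-fold higher in the *Cubn* cluster in both genotypes (4.05% of 2469 genes were) and none was lower by that much (4.41%). These were *Man2b1*, at 2.06 against 0.527 per 10000 in WT and 2.08 against 0.558 in ROBO, and *Neu1*, at 3.48 against 1.58 and 4.36 against 1.30. *Lgmn*, with too few UMIs for a call, was at 0.749 against 0.0658 and 0.606 against 0.124. *Ctsb*, *Ctsd*, *Ctsz*, *Lamp1* and *Laptm4a* differed by less than 1.5-fold between the clusters in both genotypes. The cluster borders were drawn on other genes of the same cells, so these ratios describe the clusters and carry no test.

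The rises of *Ctsl* and *Neu1* were seen in many cells. After each cell had been thinned to 912 UMIs, *Ctsl* was found in 45 of 82 cells (54.9%, 43.5 to 65.9%) at the top in WT and 55 of 99 cells (55.6%, 45.2 to 65.5%) in ROBO, against 1 of 208 cells (0.481%, 0.0122 to 2.65%) and 3 of 202 cells (1.49%, 0.307 to 4.28%) among stem cell-like cells. Without thinning, the shares for *Ctsl* were 48.5% and 56.6% at the top and 1.69% and 3.42% in stem cell-like cells. The lowest such share at the top among the rising members was that of *Tpp1*, 17.7% in WT and 19.7% in ROBO. *Neu1* was found in 36 of 82 cells (43.9%, 33.0 to 55.3%) and 48 of 99 cells (48.5%, 38.3 to 58.7%) at the top and in 12 of 208 cells (5.77%, 3.02 to 9.86%) and 9 of 202 cells (4.46%, 2.06 to 8.29%) among stem cell-like cells. For *Npc2* the shares overlapped, with 18 of 82 cells (22.0%, 13.6 to 32.5%) and 18 of 99 cells (18.2%, 11.1 to 27.2%) at the top and 63 of 208 cells (30.3%, 24.1 to 37.0%) and 49 of 202 cells (24.3%, 18.5 to 30.8%) in stem cell-like cells. The 5 cells with most UMIs of a gene held 17.96% of the *Neu1* UMIs of top enterocyte-like cells in WT and 18.5% in ROBO, and 31.7% and 38.9% of the *Ctsl* UMIs. RNA set free from broken top enterocytes can also be captured with other cells. *Fcgrt*, which encodes the neonatal Fc receptor and was the most abundant gene of the endocytosis list at the top, had 1.13% of its top level in stem cell-like and 0.602% in immune-like cells. The stem cell-like level was 2.68% of the top level for *Ctsl*, 4.00% for *Lgmn*, 6.83% for *Neu1* and 0 for *Slc46a3*, and the part of free RNA in these low levels was not tested. For *Ctsl* the 9 stem cell-like cells with fibroblast markers, given above, held 29 of the 42 UMIs.

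Stress from dissociation and the mix of cells were measured beside the rises, and their part in them was not tested beyond the values given here. A list of 14 dissociation stress genes summed to 38.9 and 37.9 per 10000 in stem cell-like cells of WT and ROBO and to 38.9 and 36.1 in top enterocyte-like cells, close to equal at both ends. A list of 13 macrophage markers summed to 2.38 and 2.66 per 10000 at the top against 0.670 and 0.309 in stem cell-like cells. *Csf1r* gave 91 of the 96 macrophage marker UMIs of top enterocyte-like cells, and *C1qa*, *C1qb*, *C1qc*, *Adgre1*, *Cd74* and *Tyrobp* were at 0 there. Without the 38 cells that held UMIs of at least 2 macrophage markers 11 members rose, and without 291 stress-rich cells 12 did. A list of 13 fibroblast markers summed to 6.21 in WT and 17.9 in ROBO stem cell-like cells and had 1 UMI in all top enterocyte-like cells, and 12 members rose without the cells that held at least 2 of its genes. With the shallow stem cell-like cluster left out of the crypt end 13 members rose. A list of 5 markers of the distal small intestine summed to 1.16 in WT and 1.5 in ROBO stem cell-like cells and to 24.8 and 22.9 at the top. Most of this was *Clec2h*, which was at 23.0 per 10000 at the top and 0.718 in stem cell-like cells, while *Fabp6* and *Slc10a2*, genes of ileal bile acid uptake, had no UMI in any enterocyte-like class. By the study's methods, crypts were isolated with the organoid protocol, which takes the proximal part of the small intestine and leaves out the distal part. The cells carry no label of their position along the intestine.

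The remaining lysosomal machinery was described from lists of genes that are not members. All 4 of the other lysosomal hydrolases with enough UMIs rose, among them *Dpp7*, with log2 top over stem ratios of 2.14 in WT and 2.28 in ROBO. Of the other lysosomal membrane proteins, 3 of 4 rose, *Slc17a5* (the sialic acid exporter) by 4.31 in WT and 3.59 in ROBO, the cation channel gene *Mcoln1* by 1.48 in WT and 2.54 in ROBO and *Laptm4b* by 1.18 in WT and 1.17 in ROBO. Of 13 V-ATPase subunits, 7 rose, most of all *Atp6v0d1*, *Atp6v0a1* and *Atp6v1b2*, with 1.77 in WT and 4.40 in ROBO, 2.57 in WT and 3.18 in ROBO and 2.29 in WT and 2.01 in ROBO, and 2 were even. The ROBO ratios of *Atp6v0d1* (2.94 to 6.35) and *Atp6v0a1* (1.97 to 4.61) rested on 4 and 7 stem cell-like UMIs. Of the 6 genes for delivery to lysosomes with enough UMIs none rose (11.3% of all genes did) and 2 fell, close to the 31.0% of all genes. *Sort1* (the sorting receptor sortilin) had -2.01 (-3.36 to -0.90) in WT and -1.62 (-2.74 to -0.65) in ROBO. *Gnptab* (the enzyme that begins the mannose 6-phosphate tag) had -1.54 (-3.91 to 0.16) in WT and -1.03 (-2.60 to 0.28) in ROBO, on 3 and 6 UMIs at the top, and both intervals include 0. Of 6 regulators of lysosome genes and of the mTORC1 platform, *Flcn* and *Rragc* rose, with 2.73 in WT and 1.76 in ROBO and 1.21 in WT and 2.18 in ROBO, and of 2 cathepsin inhibitors *Cstb* (cystatin B) rose, with 1.65 in WT and 1.17 in ROBO, whereas *Cst3* (cystatin C) had -0.89 in WT and -1.03 in ROBO. All 4 endocytosis receptors with enough UMIs rose, *Fcgrt* by 6.50 in WT and 6.44 in ROBO, *Cubn* (on 3 stem cell-like UMIs in WT and 1 in ROBO) by 6.09 (4.48 to 8.40) in WT and 7.93 (5.42 to 13.24) in ROBO, its partner *Amn* by 2.82 in WT and 3.39 in ROBO and the adaptor *Dab2* by 5.74 in WT and 5.55 in ROBO, while *Lrp2* (megalin) had 1 UMI in the named classes. *Cubn* was higher in the middle cluster it led, at 7.42 per 10000, than at the top, at 4.78, whereas *Dab2* and *Fcgrt* were higher at the top, at 7.74 against 2.49 and 129 against 40.1. The median log2 ratio of the tested genes was 1.01 in WT and 1.04 in ROBO for the V-ATPase and -0.48 and -0.24 for delivery, beside -0.68 and -0.59 over all genes. These lists were compiled with earlier results of these data known, so their counts are a description.

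Several members that were not raised at the villus top were highest in the 45 immune-like cells, which were led by lymphocyte genes such as *Gzma* and *Ccl5* and also held macrophage markers. *Gm2a* was at 3.61 per 10000 in WT and 3.49 in ROBO, 19.8-fold and 31.2-fold its level in all epithelial-like cells. *Psap* was at 6.85 and 5.23, a log2 difference of 2.35 (1.82 to 2.84) in WT and 1.63 (0.86 to 2.32) in ROBO. *Ctsc*, which activates granule proteases of lymphocytes and myeloid cells, was at 4.15 and 2.62. *Ctss*, which trims the invariant chain in antigen-presenting cells, was at 5.95 per 10000 in immune-like and 6.46 in top enterocyte-like cells of WT, with overlapping intervals, and at 2.03 and 7.14 in ROBO. *Ctsl*, *Lgmn*, *Neu1* and *Slc46a3* were lower in immune-like than in top enterocyte-like cells in both genotypes.

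The start regions of the members were searched for CACGTG, the core of the E-box and CLEAR elements through which MiT/TFE factors such as TFEB are known to act on lysosomal genes. RefSeq windows of the GRCm38.p6 build, from 250 bases before to 50 after a start site, were at hand for 31 of the 35 members. CACGTG, which reads the same on both strands, lay in the windows of 10 of these 31 (32.3%) against 8.09% of all genes with a window. The longer GTCACGTG or its reverse complement CACGTGAC, which contain the shorter motif, lay in 7 (22.6% against 2.55%). The match did not sort the members by zone in a simple way: it was present in 5 of the 10 rising members with a window (*Ctsa*, *Ctsl*, *Glb1*, *Lamp1* and *Lgmn*) and also in *Ctsd* and *Gaa*, which were not called, and in *Ctsf*, *Gla* and *Naglu*, which had too few UMIs, while *Neu1*, *Fuca1*, *Ctss*, *Tpp1* and *Slc46a3* rose without it in these windows. A match describes letters and not a bound site. The 100 bases before the start site are shown for 4 rising members that hold it, for *Ctsd*, which holds it and missed the call, and for *Neu1*, which rose and lacks it, 5′ to 3′ with CACGTG in capitals. *Lamp1* (chr8:13159061-13159160, plus strand) has 4 copies within 61 bases of its start site:
Lamp1: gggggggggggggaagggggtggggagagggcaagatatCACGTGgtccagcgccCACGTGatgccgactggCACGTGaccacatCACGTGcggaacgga
The windows of *Glb1* (chr9:114400978-114401077, plus strand) and *Lgmn* (chr12:102439093-102439192, minus strand, at 1 of its start sites) each have 1 copy:
Glb1: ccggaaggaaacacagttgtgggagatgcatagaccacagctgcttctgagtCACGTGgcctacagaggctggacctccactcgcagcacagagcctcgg
Lgmn: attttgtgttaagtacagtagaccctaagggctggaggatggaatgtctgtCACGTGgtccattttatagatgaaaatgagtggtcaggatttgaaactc
*Ctsa* (chr2:164833673-164833772, plus strand, at 1 of its start sites) has a copy in these bases and another just after the start site, and *Ctsd* (chr7:142387828-142387927, minus strand) has 1 here and 1 farther upstream:
Ctsa: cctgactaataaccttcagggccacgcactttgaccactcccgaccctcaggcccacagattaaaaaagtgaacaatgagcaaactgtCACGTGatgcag
Ctsd: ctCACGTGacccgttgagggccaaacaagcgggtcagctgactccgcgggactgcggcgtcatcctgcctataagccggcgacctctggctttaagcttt
*Neu1* (chr17:34931153-34931252, plus strand) has none:
Neu1: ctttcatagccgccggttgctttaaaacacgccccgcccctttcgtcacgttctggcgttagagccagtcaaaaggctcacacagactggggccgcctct

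By the GENCODE M21 annotation of the same build, *Ctsl* lies at chr13:64359337-64370890, *Lgmn* at chr12:102394084-102439813, *Neu1* at chr17:34931253-34935953 and *Slc46a3* at chr5:147878437-147894815. Of the 34 members looked up there, 10 have an exon that overlaps an exon of another gene, 3 on the same strand. Among these, *Ctsl* overlaps a processed pseudogene and an antisense RNA, *Ctsa* overlaps *Neurl2* and *Pltp* on the other strand, and *Glb1* overlaps *Tmppe* on its own strand. Whether the counting used the strand is not given in the sources used here, so a part of the UMIs of these genes could belong to the neighbour.

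The summed level of the members was close in WT and ROBO. Over all cells their summed level was 51.4 (50.5 to 52.2) per 10000 in WT against 55.1 (54.2 to 56.0) in ROBO, and the log2 ratio of ROBO over WT was 0.10 (0.07 to 0.14). The share of top enterocyte-like cells was also higher in ROBO, 12.2% against 9.64%, and its part in that ratio was not tested. Within a class the summed ratio was 0.07 (-0.01 to 0.16) in stem cell-like cells, where 8 of 17 alternatives gave a value below 0, and 0.12 (0.04 to 0.20) in top enterocyte-like cells. In transiently amplifying-like cells it was 0.07 (-0.01 to 0.15), in bottom enterocyte-like cells -0.03 (-0.15 to 0.09) and in middle enterocyte-like cells -0.01 (-0.09 to 0.06), with 0 inside the interval in each. The median log2 ratio of the single members over all cells was 0.07, beside 0.00379 for all genes with at least 30 UMIs, whereas within the 5 classes it lay between -0.07 in bottom enterocyte-like and -0.01 in transiently amplifying-like cells, below 0 in each.

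Of the 34 members with at least 30 UMIs over both genotypes, 3 were past 1.5-fold higher in ROBO over all cells (3.59% of all genes were) and 1 was past 1.5-fold lower (3.78%). *Ctsl* was at 1.14 per 10000 in WT and 2.04 in ROBO, and the log2 ratio was 0.83 (0.62 to 1.04). *Lipa* was at 0.328 and 0.527, with 0.68 (0.28 to 1.09). *Gla* had 13 and 18 UMIs, and its interval, -0.50 to 1.76, includes 0. *Gm2a* was lower in ROBO, at 0.152 against 0.242, with -0.67 (-1.29 to -0.07), and 20 of its 65 WT UMIs and 12 of its 37 ROBO UMIs lay in immune-like cells, of which WT had 26 and ROBO 19.

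**Figure D4:**
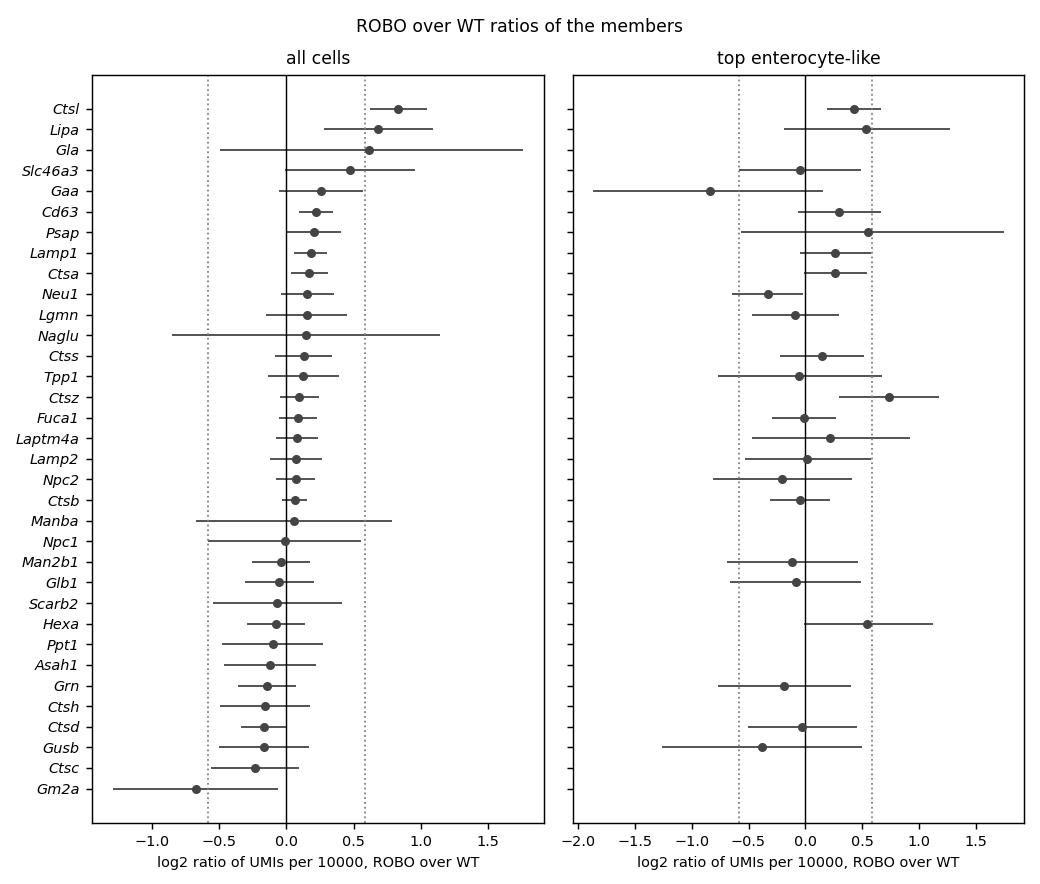
Log2 ratios of the level in ROBO over WT for each member with at least 30 UMIs over both genotypes, over all cells (left) and in top enterocyte-like cells (right), with 95% counting intervals; dotted lines mark 1.5-fold. Most members lie near 0 over all cells, with Ctsl and Lipa on the right and Gm2a on the left; in top enterocyte-like cells Ctsz lies beyond 1.5-fold on the right and Gaa on the left.

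In top enterocyte-like cells 24 members had enough UMIs, of which 1 was past 1.5-fold higher in ROBO (11.0% of all genes were) and 1 lower (7.24%). The higher one was *Ctsz*, at 3.96 per 10000 in WT against 6.58 in ROBO (log2 ratio 0.73, 0.30 to 1.18), and the lower one *Gaa*, with -0.84 (-1.87 to 0.15). In stem cell-like cells, where 25 members had enough UMIs, *Ctsl* and *Gaa* were past 1.5-fold higher in ROBO (6.64% of all genes were) and *Ctsc* and *Ppt1* lower (8.28%). *Gaa* had 34 UMIs there in WT and 51 in ROBO, with a log2 ratio of 0.75 (0.09 to 1.42), the reverse of its direction at the top. *Ctsc* had 24 and 10 UMIs and *Ppt1* 25 and 14. For *Ctsl*, with 11 and 31 UMIs, the log2 ratio was 1.66 (0.63 to 2.80), and without the 9 cells that held fibroblast markers it was 0.86 (-0.94 to 2.81) on 5 and 8 UMIs. In middle enterocyte-like cells, where 27 members had enough UMIs, none was past 1.5-fold higher in ROBO (6.98% of all genes were) and 3 were lower (8.40%). These were *Hexa*, with -0.63 (-1.17 to -0.09), and *Ctsh* and *Gusb*, whose intervals, -1.63 to 0.14 and -1.67 to 0.30, include 0. In transiently amplifying-like cells *Psap* was past 1.5-fold higher, with 0.68 (0.26 to 1.10), beside 10.6% of all genes, and *Glb1* lower, with -0.87 (-1.58 to -0.19), beside 7.34%. In bottom enterocyte-like cells *Npc2* was higher, with 0.59 (0.09 to 1.10), beside 10.4%, and *Ctsd* lower, with -0.64 (-1.19 to -0.10), beside 13.9%. The genotype ratios of the middle, transiently amplifying-like and bottom classes were not run under the alternatives.

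The genotype ratio of *Ctsl* was smaller without its highest single cells, over all cells and in top enterocyte-like cells. One ROBO top enterocyte-like cell held 78 of the 393 *Ctsl* UMIs of its class, whereas the highest WT cell held 17 of 224. In top enterocyte-like cells the log2 ratio was 0.43 (0.19 to 0.67) with all cells and 0.22 (-0.04 to 0.48) without the highest cell of each genotype. Over all cells it went from 0.83 to 0.67 (0.45 to 0.89) in the same way. Top enterocyte-like cells held 224 of the 307 *Ctsl* UMIs in WT and 393 of the 495 in ROBO. Their share of all cells was 9.64% in WT and 12.2% in ROBO, and its part in the *Ctsl* ratio was not tested. With each cell thinned to 912 UMIs the ratio over all cells was 0.43, under 1.5-fold. The shares of top enterocyte-like cells with a *Ctsl* UMI had overlapping intervals in WT and ROBO. In stem cell-like cells the 5 highest cells held 90.9% of the *Ctsl* UMIs in WT and 80.6% in ROBO. The ratios of *Lipa* over all cells and of *Ctsz* in top enterocyte-like cells were 0.68 and 0.75 without their highest cells, close to those with all cells, and 0.28 and 1.35 after thinning.

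**Figure D5:**
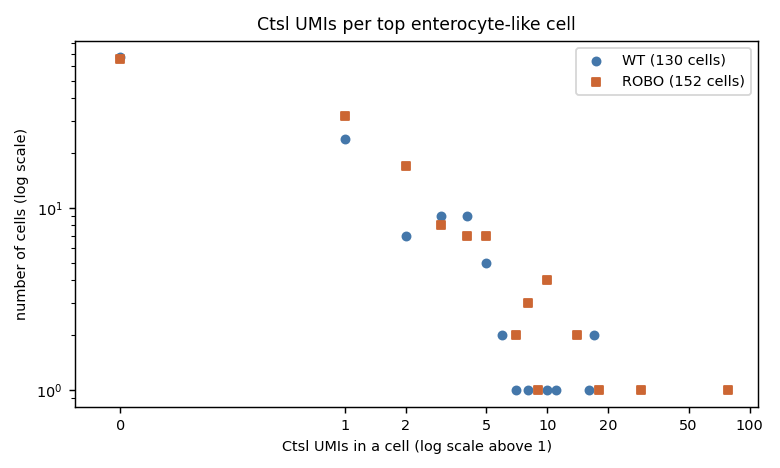
Number of top enterocyte-like cells (log scale) by the number of Ctsl UMIs in the cell (log scale above 1) in WT (130 cells) and ROBO (152 cells). In WT 67 cells and in ROBO 66 cells hold no Ctsl UMI, and 1 ROBO cell with 78 UMIs stands apart on the right.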

How the data were processed

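The authors captured single cells of crypt isolates in droplets, made 3′ libraries that tag transcripts with UMIs, and built gene matrices in BaseSpace Sequence Hub, from which they deposited 1 matrix of raw, unnormalized counts for each genotype. The submitters' processing notes name the builds mm10 and GRCm38; the aligner, the annotation and the rule for calling cells are not given in the sources used here. Nothing says that the 8 labelled samples of a genotype are separate mice.

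All cells were combined, log-normalized to 10000 UMIs, adjusted for S and G2M scores and clustered with Seurat 5.3.0 (R 4.3.3, 2000 variable genes, 20 principal components, resolution 0.8). The input was the 13201 genes detected in at least 3 cells. The 114 lysosomal and endocytosis genes on the lists that the matrices hold were barred from the variable genes, and 24 of them were among these before removal. A cluster was named when at least 3 markers of a class were 1.5-fold above all other cells and found in 10% of its cells or more, and 1 or more stood among its 10 leading genes. Scrublet in scanpy 1.11.5 called 2 WT and 4 ROBO doublets, which were kept. UMIs were summed by class and genotype. Intervals are exact Poisson (levels), conditional exact (ratios) and Clopper-Pearson (shares), with scipy 1.17.1, and cover counting error only. A count of 0 was set to a limit of 3 counts. In simulated sums of 4653 genes for the WT top over stem comparison, of which 200 were changed, 96.3% of the intervals held the true ratio. That check is of counting error in sums and does not cover UMIs gathered in few cells. No p-value was computed, since each genotype is 1 pooled sample and cells are not replicates. All 35 members are named, and of each other list those past 2-fold with the 3 largest ratios, those that fell past 2-fold and the endocytosis receptors; other genes named were chosen after their values were seen, and some genes that this rule would name are not reported here. The members, the lists and the thresholds were chosen with earlier results of these data known. Alternatives covered clustering, scaling, cell weights, depth, thresholds and single cells. Member sequences of proteins were not used here.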

Additional observations from a re-analysis of the deposited data

Results flagged for a closer look

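Among the members with enough UMIs, *Gaa* and *Ctsh* went opposite ways from stem cell-like to top enterocyte-like cells in WT and ROBO. *Gaa*, the gene of the acid α-glucosidase, had a log2 top over stem ratio of 1.00 (0.16 to 1.82) in WT and -0.59 (-1.50 to 0.24) in ROBO, on 22 and 16 UMIs at the top. *Ctsh*, the gene of the aminopeptidase cathepsin H, had -1.18 (-3.15 to 0.34) in WT and 0.62 (-0.40 to 1.62) in ROBO, on 4 and 16 UMIs at the top. The difference between the genotypes was not tested, since each is 1 pooled sample. After thinning of the cells to 912 UMIs *Ctsh* was at 0.02 in WT and -2.56 in ROBO, the reverse order.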

How the results depend on the processing

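No paired analysis was possible because the cells carry no replicate number, and no replicate could be left out, since the names of the cells do not tell the samples of a genotype apart. The counting intervals and the folds therefore say nothing of the spread between mice, and members with few UMIs, such as *Ctsf*, *Gla*, *Manba* and *Naglu*, are limited by depth. Over the main setting and 24 alternatives, *Ctsa*, *Ctsl*, *Ctss*, *Lgmn*, *Fuca1* and *Neu1* rose in every one, *Glb1* in 24, *Lamp1* in 24, *Slc46a3* in 24, *Ctsb* in 22 and *Tpp1* in 18. Members not called in the main setting rose in some, *Grn* in 12, *Hexa* in 10, *Man2b1* in 9, *Ctsd* in 7, *Gusb* in 7, *Ctsz* in 6, *Lipa* in 4, *Lamp2* in 5 and *Cd63* in 3.

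The count of 11 rising members became 19 with scaling without the 14 abundant genes and 1.5-fold in place of 2-fold and 18 with transiently amplifying-like cells added to the crypt end, and lay between 8 and 16 in the other alternatives. Even members, 1 in the main setting, were 2 with lysosomal genes kept in the clustering, no regression of cell-cycle scores and scaling without the 14 abundant genes, 0 with 10 principal components and 3 with transiently amplifying-like cells added to the crypt end. Falling members, 0 in the main setting, were 2 with resolution 0.5, called doublets removed, minimum of 1 UMI, 1.5-fold in place of 2-fold and transiently amplifying-like cells added to the crypt end and 1 with equal weight of cells. The summed log2 ratio of top over stem in WT, 1.58, became 1.70 with lysosomal genes kept in the clustering, 1.40 with no regression of cell-cycle scores, 1.96 with scaling without the 14 abundant genes and 1.69 with transiently amplifying-like cells added to the crypt end. In ROBO it went from 1.63 to 1.78 with lysosomal genes kept in the clustering, 1.72 with no regression of cell-cycle scores, 1.71 with resolution 0.5, 1.83 with resolution 1.2, 1.73 with 10 principal components, 1.82 with cells of few genes left out, 1.97 with scaling without the 14 abundant genes, 1.53 with equal weight of cells and 1.74 with transiently amplifying-like cells added to the crypt end.

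Between the genotypes, the 4 members past 1.5-fold over all cells became 2 with equal weight of cells and thinning and 0 with 2-fold in place of 1.5-fold. The 4 in stem cell-like cells became 2 with lysosomal genes kept in the clustering, no regression of cell-cycle scores, resolution 1.2, 30 principal components, called doublets removed, thinning, the 5 cells with most member UMIs per class left out, 2-fold in place of 1.5-fold and each member without its single highest cell, 1 with 1000 variable genes, 0 with cells of few genes left out and minimum of 100 UMIs and 10 with minimum of 1 UMI. The 2 in top enterocyte-like cells became 1 with lysosomal genes kept in the clustering, 1000 variable genes, cells of few genes left out, thinning and minimum of 100 UMIs, 4 with the 5 cells with most member UMIs per class left out, 7 with minimum of 1 UMI and 0 with 2-fold in place of 1.5-fold. The summed log2 ratio of ROBO over WT in stem cell-like cells was below 0 in 8 alternatives, -0.15 with no regression of cell-cycle scores, -0.0479 with resolution 1.2, -0.10 with 10 principal components, -0.0194 with 30 principal components, -0.0557 with 1000 variable genes, -0.0725 with cells of few genes left out, -0.0281 with called doublets removed and -0.0625 with thinning. Over all cells it was 0.0442 with thinning, and in top enterocyte-like cells 0.0381 with the 5 cells with most member UMIs per class left out. No ratio called rising, or called past 1.5-fold between the genotypes, changed its direction. The ratios of *Ctsh*, called opposite, did so after thinning, as given above. Leaving out the shallow stem cell-like cluster, stress-rich cells, cells with macrophage or fibroblast markers, or the highest cell of each member was chosen after seeing the data. The causes of these shifts were not tested.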

Other observations

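Secretory-like and enteroendocrine-like cells had the lowest summed member levels of the named classes, 32.5 per 10000 in WT and 31.2 in ROBO for the secretory-like and 31.9 and 38.3 for the 30 enteroendocrine-like cells. The enteroendocrine-like rank is not resolved. Its intervals, 25.4 to 39.5 in WT and 30.1 to 48.0 in ROBO on 84 and 75 member UMIs, include the transiently amplifying-like levels of 36.8 and 38.6. Of the members that rose, *Ctsl* was at 0.198 in secretory-like and 0.871 in enteroendocrine-like cells and *Fuca1* at 1.86 and 0.653 per 10000 over both genotypes, below their top enterocyte-like levels. *Ctsb*, which also rose, was the largest member in ROBO secretory-like cells, with 13.9% of the member UMIs. *Cd63* and *Npc2*, which did not rise, were at 4.24 and 4.57 and at 2.38 and 3.48, near their levels of 3.71 and 3.35 in stem cell-like cells.

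The unnamed cluster of 110 cells led by *Cxcl10* and other stress genes, which also had *Cubn* among its leading genes, had raised levels of some members. *Neu1* was at 3.54 and *Fuca1* at 5.16 per 10000 there, near their middle enterocyte-like levels of 3.00 and 4.63, while *Ctsl* was at 0.986, against 16.3 at the top. The 9 stem cell-like cells with fibroblast markers held 101 member UMIs per 10000 in WT and 119 in ROBO, above the levels of their class.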
